A study of Homo sapiens with 6 samples.

Results

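The enzymes described here make or use glutamine, glutamate, asparagine and proline. They are 9 genes, found by symbol among the 60107 Ensembl gene IDs of the deposited table: ASNS, GLUL, GLS2, GLUD1, GOT1, GOT2, GPT2, ALDH18A1 and PYCR1. All 9 passed the filter on low counts, which left 22613 genes. Their RNA was measured in H9, a long-established line of human embryonic stem cells, which had gone through 9 days of a 10-day protocol toward nephron progenitor cells, the precursors of the kidney's filtering units. In 3 libraries the cells had been grown in complete medium, and in 3 the medium had lacked glutamine since day 0. The labels do not say whether the 3 libraries of a group came from separate cultures, so each p-value measures only the spread between these libraries. All come from 1 line, and the amounts of other amino acids in the medium are not given in the sources used here.

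Glutamine carries nitrogen that amidotransferases hand to nucleotides, amino sugars and asparagine. Glutamine synthetase makes it from glutamate and ammonia, and glutaminases turn it back. Glutamate in turn supplies transaminases, which pass its nitrogen to aspartate and alanine, the dehydrogenase that yields 2-oxoglutarate for the tricarboxylic acid cycle, and the pathway to proline. When amino acids run short, the kinase GCN2 and the transcription factor ATF4 raise a set of genes through sites called C/EBP-ATF response elements, and asparagine synthetase is a classic member of that set.

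The libraries held 78220507 to 84746566 counts. Replicate 1 with glutamine stood apart: across genes, which are not independent replicates, its log2 levels had a mean Pearson's r of 0.976 with the others of its own group and 0.9916 with the libraries without glutamine. All 8 nephron progenitor markers passed the filter. Their summed level was 620 to 940 CPM (counts scaled to a common library total) with glutamine and 883 to 1127 without. HOXD11 had 44, 0 and 1 counts in replicates 1, 2 and 3 with glutamine against 277, 418 and 475 without. No library had more than 1 count of the pluripotency gene NANOG. The other pluripotency gene, POU5F1, had 7, 5 and 5 counts with glutamine and 13, 3 and 6 without, below the filter. Of the 8 nephron progenitor markers 2 were higher without glutamine with no overlap, LHX1 and HOXD11, and 1 was lower, EYA1. Over all genes kept, 34.2% had groups that do not overlap, so this count is near the background. PAX2 was at 150 CPM in replicate 1 with glutamine against 17.0 and 12.9 in the others of its group, whereas SIX2 was at 6.57 against 34.8 and 27.8 CPM and OSR1 at 16.4 against 39.9 and 35.4 CPM. As group means, SIX2 was at 23.1 CPM with and 8.25 CPM without, and OSR1 at 30.6 and 16.8 CPM, both with overlap. EYA1 also had a lower mean without glutamine, and PAX2, LHX1, SALL1, WT1 and HOXD11 had higher ones. Of markers of other cell types, PAX6 (neural ectoderm, 3.76 and 2.94 CPM as group means) and SOX17 (endoderm, 0.605 and 0.196 CPM) were lower without glutamine with no overlap. The other endoderm marker, FOXA2, went the other way, with 0 counts in each library with glutamine and 3, 3 and 4 without, below the filter. The groups overlapped for SOX2 (neural ectoderm) and for the somite markers TBX6 and MEOX1, the last at 53.6 and 52.5 CPM. The part of such marker differences in the enzyme values was not tested. In bulk RNA, a change in the mix of cells and a change in RNA per cell cannot be told apart.

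The promoters of a few members are shown because the response element named above can be looked for in them. The sequences are from RefSeq on GRCh38.p14, cover 250 bases before to 50 after an annotated start, and run 5′ to 3′ on the gene's strand. Capitals mark each match to TGATGNAA, the core of the element, searched on both strands. A match on the other strand appears as TTNCATCA in the strand printed. No other motif was searched. ASNS is at chr7:97872359-97872658 on the minus strand, GOT1 at chr10:99430575-99430874 on the minus strand and ALDH18A1 at chr10:95656662-95656961 on the minus strand.
ASNS: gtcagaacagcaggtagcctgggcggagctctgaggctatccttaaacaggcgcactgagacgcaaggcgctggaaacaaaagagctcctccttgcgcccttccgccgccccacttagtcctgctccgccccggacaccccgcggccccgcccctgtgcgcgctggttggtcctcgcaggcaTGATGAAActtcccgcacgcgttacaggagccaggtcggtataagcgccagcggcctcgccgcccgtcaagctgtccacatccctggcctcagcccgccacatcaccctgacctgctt
GOT1: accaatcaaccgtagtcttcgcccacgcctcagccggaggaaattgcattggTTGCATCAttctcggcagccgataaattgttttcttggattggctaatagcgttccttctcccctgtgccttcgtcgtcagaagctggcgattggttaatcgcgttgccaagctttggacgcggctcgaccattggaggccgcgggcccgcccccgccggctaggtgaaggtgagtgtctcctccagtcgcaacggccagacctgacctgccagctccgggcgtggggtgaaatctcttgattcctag
ALDH18A1: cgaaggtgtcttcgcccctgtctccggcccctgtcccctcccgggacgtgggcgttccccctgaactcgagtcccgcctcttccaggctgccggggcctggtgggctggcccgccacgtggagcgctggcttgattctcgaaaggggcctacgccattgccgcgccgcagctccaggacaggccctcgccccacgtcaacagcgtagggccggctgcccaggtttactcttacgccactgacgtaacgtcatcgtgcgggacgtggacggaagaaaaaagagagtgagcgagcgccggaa
In ASNS the match TGATGAAA began 68 bases before the start. In GOT1 the match lay on the other strand, so that the gene's strand reads TTGCATCA, and it began 198 bases before the start. Of the members, 7 had a window in the table, and 2 of these held a match. Among all genes with windows of the same length, 1217 of 27305, or 4.46%, held one. Counted by window, the members had 2 of 9, against 1270 of 35116, or 3.62%, over all windows. Among the other enzymes of the pathway, 1 of 23 with a window held one, BCAT1. A match is a run of letters, not a measured binding site.

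Set side by side, the members did not move one way when glutamine was absent. ASNS, GPT2 and ALDH18A1 were higher without glutamine in all 3 libraries, GLUL was lower in all 3, and for GLS2, GLUD1, GOT1, GOT2 and PYCR1 the groups overlapped. With edgeR's quasi-likelihood test none of the 9 had a Benjamini-Hochberg adjusted p under 0.05, and 3 had an unadjusted p under 0.05, 2 higher and 1 lower. Over all genes kept, 0.00442% passed the adjusted threshold, 1 gene of 22613. An unadjusted p under 0.05 was found for 29.7% of all genes, 14.7% higher and 15% lower. Groups that do not overlap were found for 4 of the 9 members, against 34.2% of all genes, 17.3% higher and 16.9% lower. The members' count is therefore near the background. Their median log2 fold change was 0.0062, and that of all genes was 0.0012.

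The test gave other counts under another tool and without 1 library. DESeq2 called ASNS and GPT2 of the 9, both higher, where it called 13.7% of all genes it adjusted over, 7.38% as higher. Without replicate 1 with glutamine, edgeR called ASNS, GPT2 and GLS2 as higher and GLUL and PYCR1 as lower, 5 of 9, where it called 41.3% of all genes, 22.3% higher and 19% lower. Leaving out any other library called none of the members. For 6 of the 9 members its level was closer to the mean of the group without glutamine, as it was for 62.1% of all genes. The exceptions were ASNS, GPT2 and ALDH18A1.

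**Figure D1:**
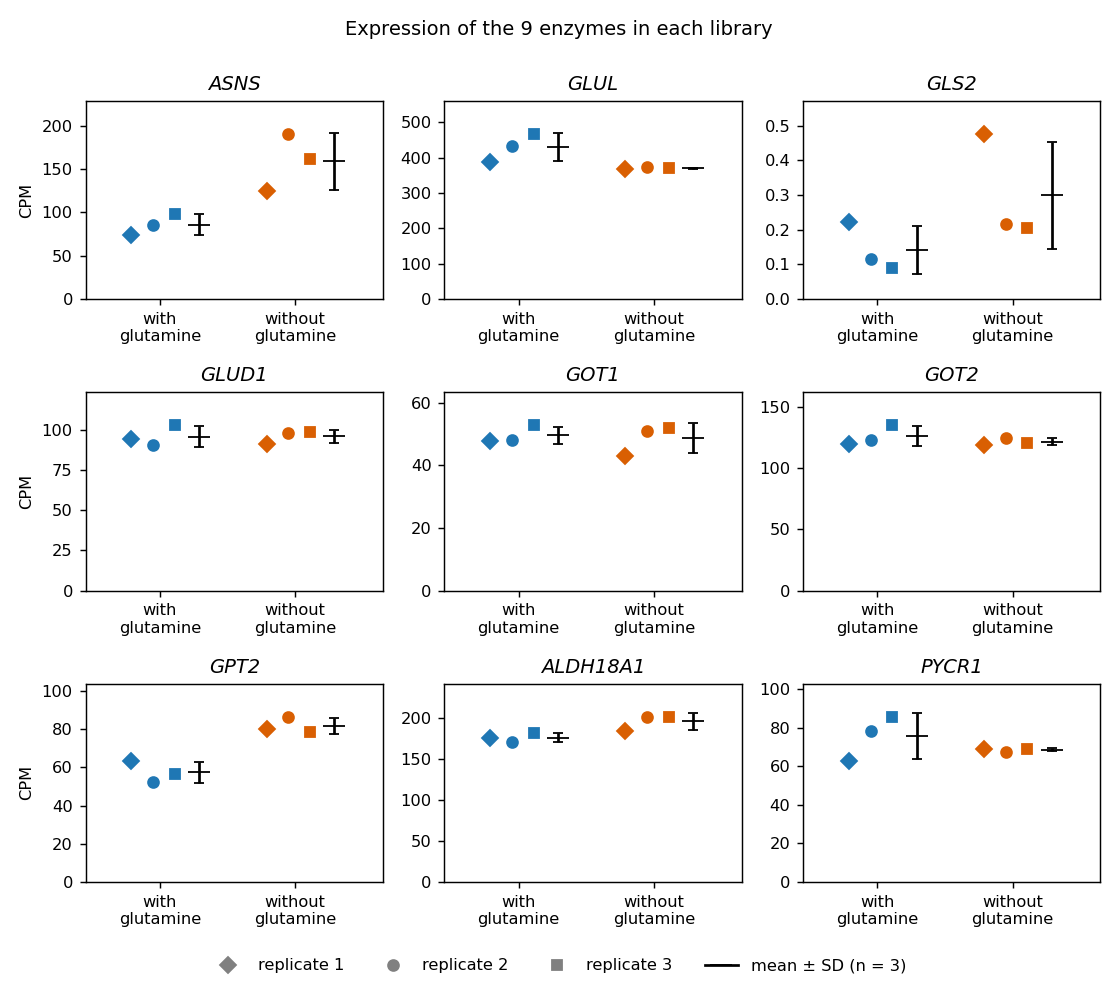
Expression in CPM (y axis, from 0) of each enzyme in the 3 libraries with and the 3 without glutamine; symbols mark the replicate number and bars the mean ± SD. ASNS, GPT2 and ALDH18A1 lie higher without glutamine with no overlap, GLUL lies lower, and the other 5 overlap.

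Asparagine synthetase, ASNS (ENSG00000070669), moves the amide nitrogen of glutamine onto aspartate to make asparagine. Positions here are from GENCODE 29 on GRCh38, and this gene spans 97852118 to 97872542 of chromosome 7, minus strand. With glutamine its level was 74.1, 85.2 and 97.9 CPM in replicates 1, 2 and 3, the order used throughout, and without it was 125, 191 and 162 CPM. The groups did not overlap, and replicate 1 with glutamine was the lowest of the 6 libraries. The log2 fold change was 0.89 (SE 0.17), or 1.86-fold, with an edgeR unadjusted p of 0.00108 and an adjusted p of 0.0682. DESeq2 gave 0.89 with an adjusted p of 0.000102, and edgeR without replicate 1 with glutamine gave 0.80 with an adjusted p of 0.00237. A transcript annotated on the same strand in GENCODE 29, AC079781.5, covers 44.6% of the bases of the ASNS exons. Its ID is not among those of the deposited counts. The authors' annotation release is not given in the sources used here, so whether it affected the ASNS count is not known.

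Alanine transaminase of mitochondria, GPT2 (ENSG00000166123, chromosome 16 at 46884378 to 46931297, plus strand), moves nitrogen from glutamate to pyruvate, giving alanine and 2-oxoglutarate. It was at 63.4, 52.3 and 56.8 CPM with glutamine and at 80.1, 86.7 and 78.6 CPM without. The lowest library without glutamine was above the highest with it. The log2 fold change was 0.51 (SE 0.091), a 1.42-fold difference, with an edgeR unadjusted p of 0.00077 and an adjusted p of 0.068. The adjusted p was 0.000692 with DESeq2 and 0.00026 with edgeR without replicate 1 with glutamine, where the log2 fold change was 0.59. GPT, which encodes the cytosolic form, was at 1.08 ± 0.259 CPM with and 1.30 ± 0.200 CPM without (SD, n = 3), and its groups overlapped.

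The aspartate transaminases GOT1, in the cytosol, and GOT2, in mitochondria, pass nitrogen between glutamate and aspartate and together serve the malate-aspartate shuttle. GOT1 (ENSG00000120053, chromosome 10 at 99396870 to 99431569, minus strand) was at 47.9, 48.2 and 52.9 CPM with glutamine and at 43.1, 51.1 and 51.9 CPM without. Its log2 fold change was -0.027 (SE 0.096, adjusted p in edgeR 0.866), and its sign turned to 0.018 and 0.057 when replicate 3 with or replicate 1 without glutamine was left out. GOT2 (ENSG00000125166, chromosome 16 at 58707131 to 58734357, minus strand) was at 120, 123 and 135 CPM with glutamine and at 119, 125 and 121 CPM without. Its log2 fold change was -0.053 (SE 0.072, adjusted p in edgeR 0.636). For both genes the difference between groups was smaller than its standard error. GOT1L1, a related gene, had 0 counts in every library, which allows up to 0.0384 CPM at the lowest depth for counting error alone.

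Glutamate dehydrogenase, GLUD1 (ENSG00000148672, chromosome 10 at 87050486 to 87094866, minus strand), converts glutamate to 2-oxoglutarate and ammonia in mitochondria. It was at 93.9, 90.2 and 103 CPM with glutamine and at 91.3, 98.2 and 98.5 CPM without. The group means were 95.6 ± 6.42 and 96.0 ± 4.03 CPM (SD, n = 3), and the log2 fold change of 0.0062 (SE 0.077, adjusted p in edgeR 0.963) had no stable sign across settings. GLUD2, an intronless copy of the same enzyme, was at 4.15 ± 0.189 CPM with and 3.83 ± 0.401 CPM without (SD, n = 3), and the groups overlapped. Reads of GLUD1, GLUD2 and 5 pseudogenes named after GLUD1 can be hard to tell apart. Those pseudogenes summed to 320 to 474 counts per library, at most 6.05% of the GLUD1 count.

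Glutamine synthetase, GLUL (ENSG00000135821), is the enzyme that makes glutamine, encoded at 182381704 to 182392206 of chromosome 1, minus strand. It was at 387, 435 and 468 CPM with glutamine and at 369, 373 and 370 CPM without. All 3 libraries without glutamine were lower, and replicate 1 with glutamine was the nearest to them. The spread was 40.4 CPM (SD, n = 3) with glutamine and 1.89 CPM without. The log2 fold change was -0.21 (SE 0.082), with an edgeR unadjusted p of 0.0341 and an adjusted p of 0.141, and the DESeq2 adjusted p was 0.228. Without replicate 1 with glutamine the log2 fold change was -0.28 (edgeR adjusted p 0.00665). The mRNA of the glutamine-making enzyme was thus not higher in medium without glutamine in any library.

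GLS2 (ENSG00000135423, chromosome 12 at 56470944 to 56488414, minus strand) encodes a glutaminase known from liver, which releases glutamate from glutamine. It had only 18, 9 and 7 counts with glutamine and 41, 17 and 16 without, or 0.0891 to 0.222 CPM and 0.204 to 0.477 CPM. The groups overlapped, since replicate 1 with glutamine lay above replicates 2 and 3 without. The log2 fold change of 1.08 had an SE of 0.49 and an edgeR adjusted p of 0.189. It was 1.56 without replicate 1 with glutamine (edgeR adjusted p 0.0365) and 0.56 to 1.56 over the fits that each left out 1 library. At this depth a few reads set the value. The gene SPRYD4 on the opposite strand shares 77.1% of the bases of the GLS2 exons and had 1135 to 1428 counts, and the strand setting of the counting is not given in the sources used here.

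Proline is made from glutamate in a short chain. ALDH18A1 encodes the first enzyme, which reduces glutamate toward pyrroline-5-carboxylate, and PYCR1 encodes a mitochondrial enzyme of the last step. ALDH18A1 (ENSG00000059573, chromosome 10 at 95605929 to 95656706, minus strand) was at 176, 171 and 182 CPM with glutamine and at 185, 202 and 202 CPM without. The groups did not overlap, by a small margin, and the log2 fold change was 0.15 (SE 0.068), with an edgeR unadjusted p of 0.0556 and an adjusted p of 0.177. PYCR1 (ENSG00000183010, chromosome 17 at 81932384 to 81942412, minus strand) was at 62.4, 78.3 and 85.7 CPM with glutamine and at 69.0, 67.5 and 69.1 CPM without. Replicate 1 with glutamine was the lowest of the 6, and replicates 2 and 3 of that group were the highest. The log2 fold change of PYCR1 was -0.14 (SE 0.12, adjusted p in edgeR 0.445) with all libraries and -0.26 (edgeR adjusted p 0.0154) without replicate 1 with glutamine.

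PYCR3 encodes another enzyme of the last proline step, and its level per length with glutamine was 3.67 CPM per kb of exon, against 26.2 for PYCR1. PYCR3 was at 11.9 ± 1.10 CPM with and 14.6 ± 0.496 CPM without (SD, n = 3), with all 3 libraries without glutamine higher. Its log2 fold change was 0.29 (SE 0.10), with an edgeR adjusted p of 0.12.

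**Figure D2:**
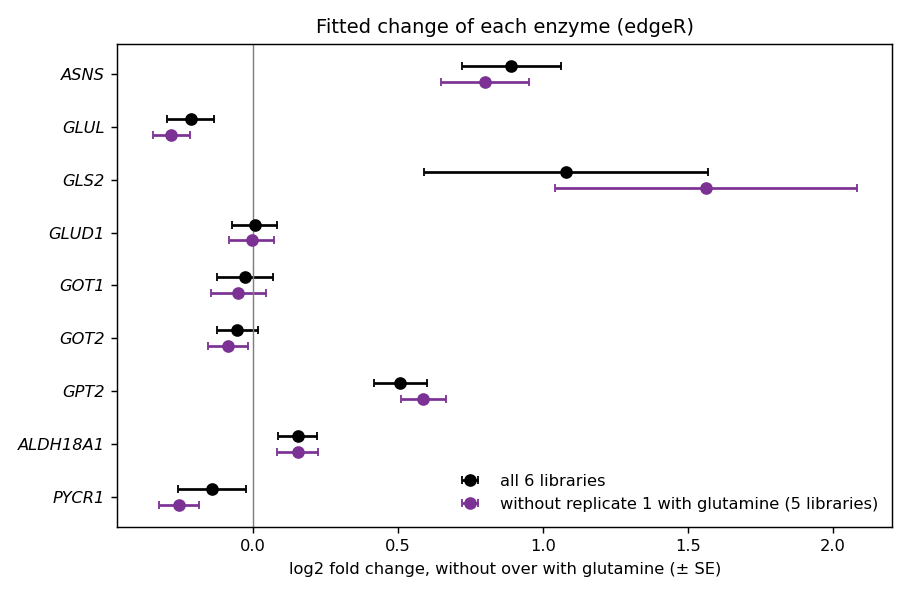
Log2 fold change without over with glutamine (x axis, ± SE) of each enzyme in edgeR, with all 6 libraries and without replicate 1 with glutamine. ASNS and GPT2 lie well above 0 in both fits, GLUD1, GOT1 and GOT2 lie near 0, and GLS2 has the widest error.

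Levels can be compared between genes only per length of transcript, here as CPM per kb of all annotated exons. With glutamine the order was GLUL at 47.6 ± 4.47, ALDH18A1 at 46.8 ± 1.36, GOT2 at 33.4 ± 2.14, GLUD1 at 27.2 ± 1.83 and PYCR1 at 26.2 ± 4.12 CPM per kb (SD, n = 3). ASNS followed at 19.2 ± 2.68, GOT1 at 14.7 ± 0.830, GPT2 at 9.04 ± 0.876 and GLS2 at 0.0343 ± 0.0170 CPM per kb (SD, n = 3). GLUL and ALDH18A1 differed by less than their spread, and so did GLUD1 and PYCR1, while the other neighbours in this order lay farther apart than the larger SD of the pair. Without glutamine ASNS, at 35.7 ± 7.40 CPM per kb (SD, n = 3), stood above GOT2 at 32.2 ± 0.783, though within its own spread of it, and ALDH18A1 at 52.1 ± 2.62 stood above GLUL at 41.0 ± 0.209. The scale depends on the isoforms annotated, since long minor exons lengthen a gene and lower its value.

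**Figure D3:**
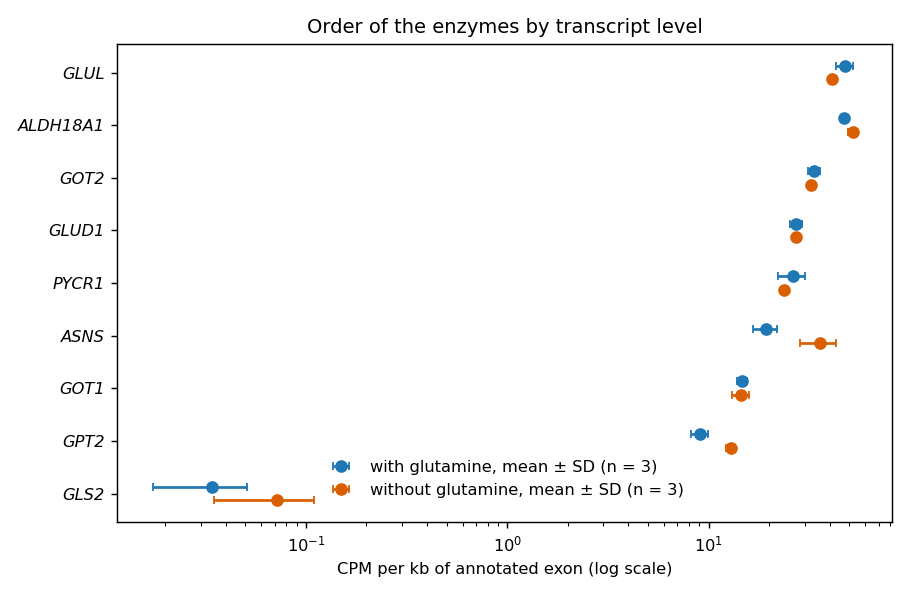
Level of each enzyme in CPM per kb of annotated exon (x axis, log scale), mean ± SD of 3 libraries per group. The enzymes other than GLS2 lie between 9.04 and 52.1 CPM per kb, and GLS2 lies under 0.1 in both groups.

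Ratios of enzymes within a library do not depend on how libraries are scaled. For 4 pairs, chosen after the values were seen, the ratio of CPM per kb was compared between groups by a two-sided exact permutation test over the 20 splits of 6 libraries, in which 0.1 is the smallest p possible. The ratio of ASNS to GLUL was 0.388, 0.397 and 0.425 with glutamine and 0.686, 1.04 and 0.887 without (exact p 0.1, adjusted over the 4 pairs 0.2). ASNS was higher and GLUL lower in all 3 libraries without glutamine, so this ratio had to separate the groups. Its p adds no evidence. As means, asparagine synthetase mRNA stood at 0.403 ± 0.0191 of the glutamine synthetase level with glutamine and at 0.870 ± 0.176 of it without (SD, n = 3). The ratio of GPT2 to GOT2 was 0.314, 0.252 and 0.249 with glutamine and 0.400, 0.413 and 0.386 without, also with no overlap (exact p 0.1, adjusted 0.2). GPT2 alone already separated the groups and GOT2 ran only from 119 to 135 CPM. This ratio therefore had to separate them too, and its p adds no evidence either. The ratio of GOT1 to GOT2 was 0.441 ± 0.00605 with and 0.449 ± 0.0388 without (SD, n = 3, exact p 0.9). The ratio of PYCR1 to ALDH18A1 was 0.464, 0.596 and 0.616 with and 0.487, 0.437 and 0.446 without (exact p 0.2, adjusted 0.267), and the groups overlapped through replicate 1 with glutamine.

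The genes whose log2 CPM followed ASNS most closely over the 6 libraries were ATF5, LRRN1, TUBB6, ACTC1 and GARS, among 10411 genes with a mean of at least 10 CPM. Their Pearson's r with ASNS was 0.991 to 0.997, a description over 6 libraries in 2 groups. ATF5, a transcription factor of the stress response, was at 14.2 CPM with glutamine and 30.0 CPM without as group means. GARS, which charges glycine tRNA, was at 158 and 198 CPM. For GLUL the closest were XPO5, PRPF6, ZFP62, RPSA and BBS12, with r from 0.994 to 0.997. These genes top longer lists. At a looser cut, r over 0.95, 123 of the 10411 genes followed ASNS and 510 followed GLUL.

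Beyond the 9 members, 30 other genes of the same reactions were followed, and 27 passed the filter. ASPG, PRODH2 and GOT1L1 did not. None of the 27 had an edgeR adjusted p under 0.05, and 9 had an unadjusted p under 0.05, 4 higher and 5 lower without glutamine, against 29.7% of all genes. The groups did not overlap for 7 of the 27, 3 higher and 4 lower, against 34.2% of all genes, 17.3% higher and 16.9% lower, and the median log2 fold change was 0.0033. DESeq2 called 3 of them, against 13.7% of all genes. Without replicate 1 with glutamine edgeR called 14, 8 higher and 6 lower, against 41.3% of all genes, 22.3% higher and 19% lower.

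The 4 that were lower without overlap, GFPT1, GFPT2, CAD and CTPS2, are among 9 listed amidotransferases, enzymes that take the amide nitrogen of glutamine. ASNS, which also does so, was higher. Over all genes kept, 16.9% were lower and 17.3% higher with no overlap. The amidotransferases were not tested as a set. GFPT1 and GFPT2 open the hexosamine pathway, which makes amino sugars for glycosylation. GFPT1 was at 167, 230 and 219 CPM with glutamine and at 158, 160 and 160 CPM without, a log2 fold change of -0.37 (SE 0.12, adjusted p in edgeR 0.108). GFPT2 was at 32.4, 48.4 and 51.6 CPM with glutamine and at 29.6, 25.4 and 25.4 CPM without, a log2 fold change of -0.72 (SE 0.18, adjusted p in edgeR 0.0747). In both, replicate 1 with glutamine lay beside the libraries without, and DESeq2 called GFPT2 (adjusted p 0.0043). CAD, which starts pyrimidine synthesis, had 165, 201 and 206 CPM with and 158, 150 and 154 CPM without. CTPS2, a CTP synthase, had 172, 206 and 204 CPM with and 167, 165 and 166 CPM without. Their log2 fold changes were -0.31 (SE 0.096, adjusted p in edgeR 0.101) and -0.23 (SE 0.085, adjusted p in edgeR 0.134). For the other 5 amidotransferases followed, PPAT, PFAS, CTPS1, GMPS and NADSYN1, the groups overlapped. Without replicate 1 with glutamine, edgeR called GMPS lower (log2 fold change -0.32, adjusted p 0.00306) and NADSYN1 higher (0.33, adjusted p 0.00471). In that fit GFPT1 (-0.49), GFPT2 (-0.90), CAD (-0.40) and CTPS2 (-0.31) were also called lower, with edgeR adjusted p from 4.3e-05 to 0.00325. The same fit called 41.3% of all genes, 22.3% higher and 19% lower. The lowest log2 fold change of the list was that of GAD1, which makes the transmitter GABA from glutamate. GAD1 was at 1.44, 6.61 and 7.39 CPM with glutamine and at 1.65, 1.66 and 0.98 CPM without, so the groups overlapped through replicate 1 with glutamine. Its log2 fold change was -1.84 (SE 0.58, adjusted p in edgeR 0.1), and without that library it was -2.28 (edgeR adjusted p 1.16e-05). GAD2, which encodes another enzyme of that reaction, went the other way. It was at 0.961, 0.0384 and 0.0127 CPM with glutamine and at 1.07, 1.17 and 0.802 CPM without, again overlapping through that library. The log2 fold change of GAD2 was 1.56 (SE 0.86, adjusted p in edgeR 0.257), and 5.23 without that library (edgeR adjusted p 2.37e-05).

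Beside PYCR3, the genes of the list that were higher without glutamine with no overlap were PSAT1 and ASRGL1. PSAT1, the glutamate-using transaminase of serine synthesis, was at 165, 170 and 189 CPM with glutamine and at 225, 279 and 237 CPM without. Its log2 fold change was 0.50 (SE 0.10, adjusted p in edgeR 0.0689), and DESeq2 called it (adjusted p 0.00328). As in ASNS and GPT2, replicate 1 with glutamine stayed with its own group. ASRGL1, which breaks asparagine down to aspartate, was at 12.5, 8.54 and 9.63 CPM with glutamine and at 15.3, 14.1 and 13.5 CPM without, a log2 fold change of 0.49 (SE 0.15, adjusted p in edgeR 0.099, DESeq2 adjusted p 0.0304).

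**Figure D4:**
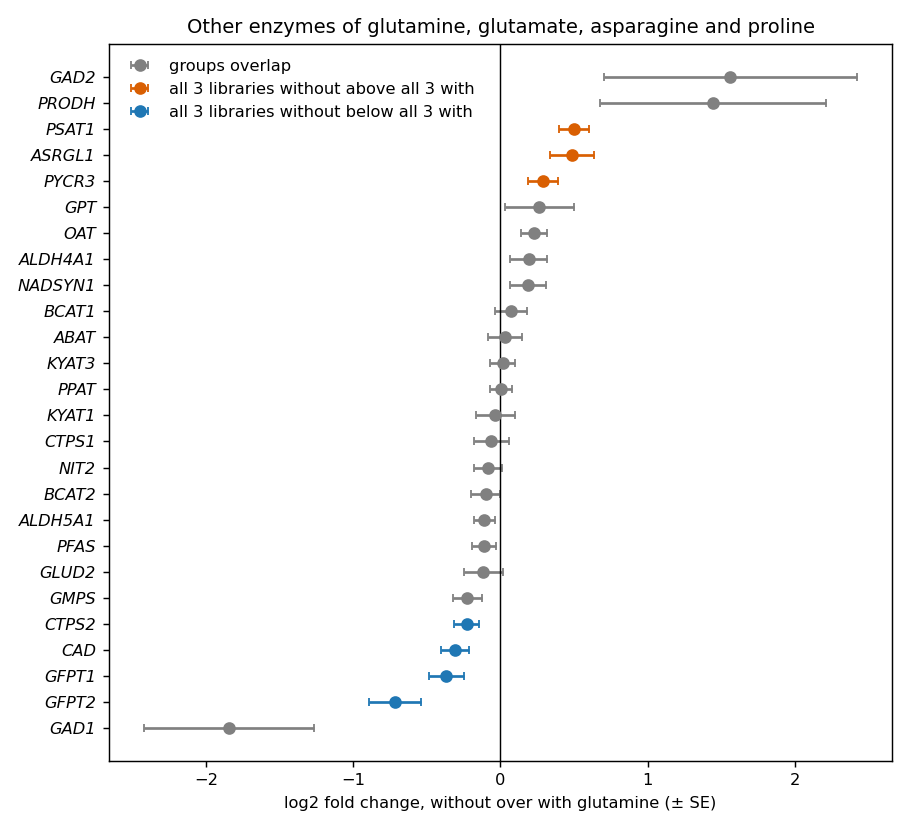
Log2 fold change without over with glutamine (x axis, ± SE, edgeR, 6 libraries) of the other enzymes that passed the filter and are reported here, coloured by whether the groups overlap. The 3 genes higher without overlap are PSAT1, ASRGL1 and PYCR3, and the 4 lower are GFPT2, GFPT1, CAD and CTPS2; the genes farthest from 0 have wide errors and overlapping groups.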

How the data were processed

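Per the labels, stranded mRNA libraries were sequenced from 1 end over 50 bases. Whole-number counts for each Ensembl gene, unscaled, were deposited by the authors as 1 column for each of 6 libraries. The submitters' processing notes name cutadapt, Trim Galore, FastQC, STAR 2.5.2b, DESeq2 and the build GRCh38; the counting program, annotation release and strand setting are not given in the sources used here. Column headings name days 0 and 9, whereas all samples are labelled day 9; each sample's description states its heading, and day 0 marks those grown with glutamine. Every direction rests on that assignment. Symbols, positions and exon lengths came from GENCODE 29, which matched 56531 of 60107 IDs.

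Counts were filtered with filterByExpr, scaled by TMM and tested with edgeR 4.0.16 (quasi-likelihood, legacy = FALSE, R 4.3.3), with Benjamini-Hochberg adjustment over all 22613 genes and a threshold of 0.05. Standard errors are the absolute log2 fold change divided by the square root of F. DESeq2 1.42.0 and limma 3.58.1 served as alternatives. The rule named all members, pathway genes whose groups did not overlap with at least 1 CPM, partners of a member's reaction, and the 5 genes most like ASNS and GLUL. BCAT1, ASPG, GAD1, GAD2, PRODH2, PPAT, PFAS, CTPS1, GMPS and NADSYN1 are named outside it. The values of 1 gene of the pathway list, which stays in that list's counts, are not reported here. Members and lists were chosen with earlier results of these data known. Depth, 78220507 to 84746566 counts, limits GLS2 alone among the members.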

Additional observations from a re-analysis of the deposited data

How the results depend on the processing

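The 16 alternatives were all planned. The count of called genes over the whole table, 1, was 0 under upper quartile scaling, library size only, limma-voom, edgeR's legacy setting and the replicate block, 2 with no filter on low counts and 3030 with DESeq2. It ran from 0 to 9573 over the fits that each left out 1 library. DESeq2 called 2 members, ASNS at 0.89 and GPT2 at 0.51 on the log2 scale, and 3 genes of the pathway list. Fits that left out 1 library called 0 to 5 members and 0 to 14 genes of that list, with the highest counts without replicate 1 with glutamine; the cause was not tested.

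Of 144 values of single members, 130 were unchanged in sign and call, 7 gained a call and 7 turned sign. The sign turned in GLUD1 and GOT1. With upper quartile scaling GLUD1 was -0.038. Where 1 library was left out it ran from -0.043 to 0.059, and GOT1 from -0.079 to 0.057. Over the same fits ASNS ran from 0.75 to 1.04, GPT2 from 0.44 to 0.59, GLUL from -0.28 to -0.15, PYCR1 from -0.26 to -0.040 and GLS2 from 0.56 to 1.56. Same-numbered samples did not deviate together (r of their deviations -0.021, 0 and 0.028), which shows no pairing but cannot exclude it. With the replicate block the edgeR SE fell from 0.49 to 0.26 for GLS2 and from 0.17 to 0.11 for ASNS. It rose from 0.091 to 0.099 for GPT2, and slightly for GOT2 and ALDH18A1. The replicate block called none of the members; ASNS was 0.88 under it (edgeR adjusted p 0.129).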
